A study of Homo sapiens with 9 samples.

Results

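YY1 occupancy was described at 10 genes that stand for 3 themes of Huntington's disease biology: the neurotrophin BDNF and its receptor gene NTRK2, the transcriptional regulators REST and PPARGC1A, and 6 genes of striatal identity (PENK, PPP1R1B, ADORA2A, FOXP1, CNR1 and MEIS2). A peak was counted as a member when the deposited peak table named one of these genes beside it, at any distance from the transcription start site (TSS). The rule took 18 of 23002 peaks, and each of the 10 genes had at least 1. Peaks are numbered within each gene in order of their mean level, so that BDNF 1 is the strongest BDNF peak. YY1 was immunoprecipitated from SK-N-MC cells, a human line labelled as neuroblastoma with genotype WT, and the precipitated DNA was sequenced (ChIP-seq). HttQ89 cells overexpressed an N-terminal huntingtin fragment with an expanded tract of 89 glutamines (Htt1-550Q89), and HttQ23 cells overexpressed the same fragment with 23 glutamines (Htt1-550Q23), with 3 libraries each, labelled as biological replicates. In both groups the fragment came from a plasmid introduced by lipofection, so both carried foreign huntingtin on top of their own, and all libraries came from 1 cell line. YY1 occupancy gives no expression level, so neither the cell type nor the presence of striatal features could be checked by marker genes.

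YY1 is a zinc finger protein that binds promoters and can activate or repress transcription. BDNF is a secreted growth factor that striatal neurons receive largely from cortical axons, and it acts through the receptor TrkB, the product of NTRK2. REST silences neuronal genes in non-neuronal cells by recruiting histone deacetylases and demethylases through its corepressors. Wild-type huntingtin is known to hold REST in the cytoplasm, and lower BDNF transcription is a known feature of Huntington's disease. The medium spiny neuron is the main cell type of the striatum and is the cell most affected by the disease, and PENK, PPP1R1B, ADORA2A and CNR1 are among the transcripts known to decline there.

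Sequences of 5 member peaks are shown because they span the range of the results: the strong REST peak, the NTRK2 and ADORA2A promoters with the lowest log2(value + 1) fold changes between HttQ89 and HttQ23, the peak assigned to PPARGC1A far from its other promoters, and the weak MEIS2 peak between genes. Each is read from GRCh38 (hg38) in the direction of its gene, and capitals mark CG dinucleotides. Only bases outside annotated UTRs are printed, and for PPARGC1A 1 and MEIS2 3 the central 121 bases. The NTRK2 stretch lies at chr9:84668173-84668374 on the plus strand, directly upstream of NTRK2. The REST stretch at chr4:56908214-56908319 (plus strand) and the ADORA2A stretch at chr22:24423958-24424097 (plus strand) lie inside their genes, past the part of the peak annotated as 5′ UTR. The PPARGC1A stretch is chr4:24471448-24471568 (minus strand) and the MEIS2 stretch is chr15:37119738-37119858 (minus strand).
NTRK2 1: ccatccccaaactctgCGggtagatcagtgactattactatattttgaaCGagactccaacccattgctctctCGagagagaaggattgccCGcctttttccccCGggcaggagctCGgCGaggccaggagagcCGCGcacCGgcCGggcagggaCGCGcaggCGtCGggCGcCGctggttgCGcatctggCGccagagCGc
REST 1: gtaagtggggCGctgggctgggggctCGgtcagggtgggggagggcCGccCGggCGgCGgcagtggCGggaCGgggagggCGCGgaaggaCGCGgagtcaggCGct
ADORA2A 1: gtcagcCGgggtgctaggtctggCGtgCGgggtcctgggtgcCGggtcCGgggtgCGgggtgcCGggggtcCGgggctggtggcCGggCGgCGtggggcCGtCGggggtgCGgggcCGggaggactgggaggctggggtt
PPARGC1A 1: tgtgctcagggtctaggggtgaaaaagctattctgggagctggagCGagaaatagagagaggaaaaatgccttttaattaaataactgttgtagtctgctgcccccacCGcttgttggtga
MEIS2 3: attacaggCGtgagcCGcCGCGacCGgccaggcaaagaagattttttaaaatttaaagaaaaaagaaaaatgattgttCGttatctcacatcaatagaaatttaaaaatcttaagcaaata
The NTRK2 stretch held 20 CG dinucleotides in 202 bases, the REST stretch 13 in 106 and the ADORA2A stretch 15 in 140. The PPARGC1A and MEIS2 stretches held 2 and 6 in 121 bases each.

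Levels are normalised read counts, that is reads per peak divided by a size factor of the library that follows sequencing depth. The libraries differed as a whole, which bears on every member below. Summed over all peaks, the HttQ89 libraries held 955340, 1000667 and 2122032 normalised reads in replicates 1 to 3, against 2061784, 1503690 and 1829861 in the HttQ23 libraries. The share of all peaks listed at 0 was 22.5% in HttQ89 replicate 1 and between 2.99% and 8.82% in the other 5 libraries. Over the 14698 peaks above 0 in every library, which were the ones tested, the median ratio to the HttQ23 mean was 0.501 in HttQ89 replicate 1 and 0.573 in HttQ89 replicate 2, but 1.16 in HttQ89 replicate 3. A difference between libraries in immunoprecipitation yield and a difference in YY1 occupancy across all peaks cannot be told apart here. Of the 18 member peaks, 16 were tested, and the 2 others (NTRK2 4 and PPARGC1A 1) were at 0 in at least 1 library.

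No member peak passed the test between HttQ89 and HttQ23. In the limma fit of all 14698 peaks, adjusted by Benjamini-Hochberg, 0 of 16 member peaks and 0 of all tested peaks (0.0%) had an adjusted p at or under 0.05. The members' adjusted p-values lay between 0.818 and 0.980, and the lowest over all peaks was 0.699. At an unadjusted p at or under 0.05, 3 member peaks were lower in HttQ89 (ADORA2A 1, NTRK2 1 and CNR1 1), beside 4.02% of all tested peaks, and 0 were higher, beside 0.204% of all tested peaks. edgeR and DESeq2 on reads recovered from the table called 0 member peaks after adjustment and 0 at an unadjusted p at or under 0.05. The fold change was negative at 15 of 16 member peaks (82.8% of all tested peaks were negative) and positive at PENK 1 alone. Within 2 kb of a TSS, called promoter peaks here, it was negative at 13 of 14 member peaks, against 85.5% of all tested promoter peaks.

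The member median log2 fold change was -0.31, against -0.50 over all tested peaks and -0.51 over tested promoter peaks. Each fold change is the HttQ89 mean minus the HttQ23 mean of log2(value + 1), a scale that compresses differences at weak peaks. These signs rested on the depth scaling of the deposited values. With each library centred on its median, the median of all peaks was 0.04 in place of -0.50, and 11 of 16 member peaks then had a positive fold change, with a member median of 0.23. Relative to the median of all tested peaks, 6 of the 16 members lay below and the others above. The standard errors of the members ran from 0.59 to 0.86 on the log2 scale, so that shifts of the size of the all-peak median could not be detected at single peaks.

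**Figure D1:**
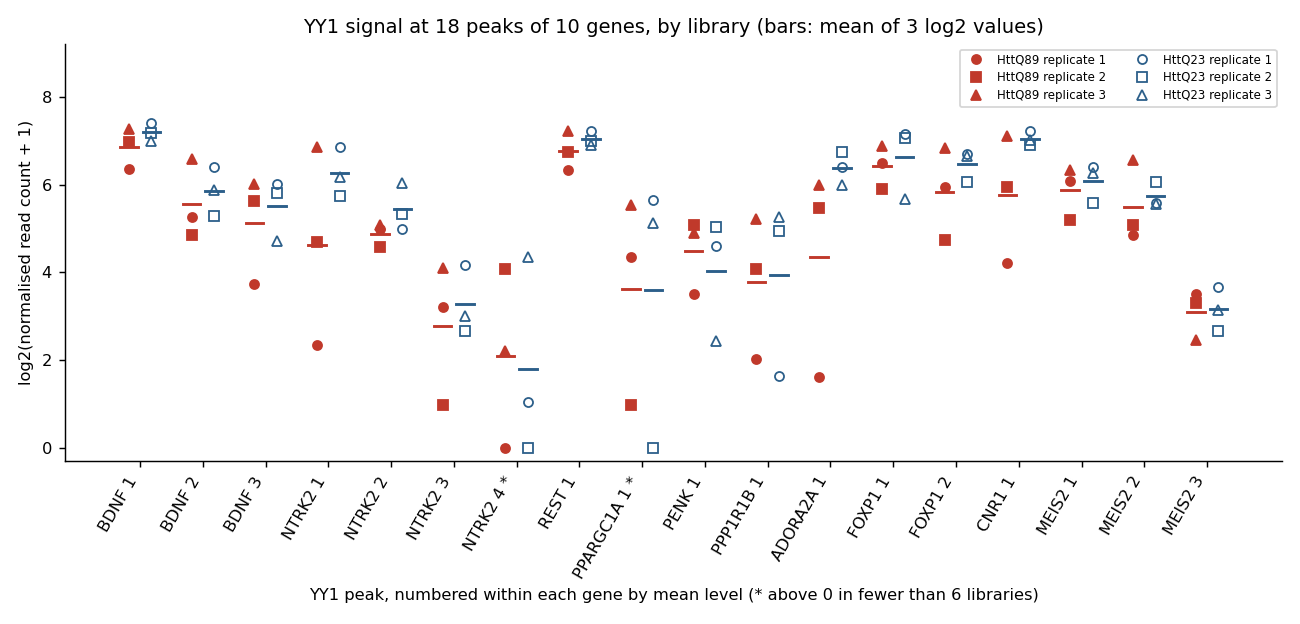
Level of YY1 at each of the 18 member peaks as log2(normalised read count + 1), with HttQ89 libraries as filled red symbols left of the HttQ23 libraries as open blue symbols, the symbol shape giving the replicate, and a short bar at the mean of 3 log2 values. The values overlap between groups at 17 of 18 peaks, and at ADORA2A 1 all HttQ89 symbols lie below all HttQ23 symbols.

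Among the neurotrophin genes, BDNF had 3 promoter peaks, none of which passed the test between groups. BDNF 1 (chr11:27700247-27700647) covered 2 of the gene's 11 annotated start sites and 242 bases of 5′ exon, all annotated as UTR. It was the strongest member peak in both groups and stood at the 80.4th percentile of all promoter peaks by level. Its normalised read counts were 80.3, 125 and 154 in HttQ89 replicates 1 to 3, against 168, 143 and 126 in HttQ23. HttQ89 replicate 1 was the lowest of the 6 libraries and HttQ89 replicate 3 the second highest, so the groups overlapped. The means were 120 ± 37.0 in HttQ89 and 146 ± 20.8 in HttQ23 (SD, n = 3 each), with a log2 fold change of -0.32 (SE 0.59, limma adjusted p = 0.850). The exact two-sided permutation test gave p = 0.4, where 0.1 is the smallest value that 3 against 3 libraries allow.

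The other BDNF peaks were weaker and no more separated. BDNF 2 (chr11:27719069-27719469) lay within an intron, 278 bases downstream of the nearest BDNF start site. It had 37.1, 27.7 and 95.0 normalised reads in the HttQ89 libraries, against 83.8, 38.2 and 57.8 in the HttQ23 libraries. Both the lowest values and the highest value belonged to HttQ89 (log2 fold change -0.30, SE 0.72, limma adjusted p = 0.881, exact permutation p = 0.7). BDNF 3 (chr11:27722476-27722876) lay outside the gene, 418 bases upstream of its outermost start site, and its distance is -418 in the table. It had 12.4, 48.4 and 63.3 normalised reads in HttQ89 and 63.6, 55.2 and 25.4 in HttQ23. HttQ89 replicate 1 was lowest, and the other 5 libraries were mixed (log2 fold change -0.39, SE 0.77, limma adjusted p = 0.859, exact permutation p = 0.6). All 3 BDNF fold changes turned positive, between 0.15 and 0.24, once libraries were centred on their medians.

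NTRK2, the gene of the BDNF receptor TrkB, had 4 peaks, of which NTRK2 1 had the second lowest fold change of all members. NTRK2 1 (chr9:84668173-84668573) covered 11 of the gene's 30 annotated start sites and the first 199 bases of 5′ UTR exon. Its normalised read counts were 4.12, 24.7 and 114 in the HttQ89 libraries, against 116, 52.0 and 70.9 in the HttQ23 libraries. HttQ89 replicates 1 and 2 were the lowest of the 6, whereas HttQ89 replicate 3 was nearly as high as the highest HttQ23 library. The 4.12 in HttQ89 replicate 1 stood for 4 reads, with an exact Poisson 95% interval of 1.12 to 10.5 normalised reads that covers counting error only. The means were 47.6 ± 58.4 in HttQ89 and 79.5 ± 32.7 in HttQ23 (SD, n = 3 each), and the log2 fold change was -1.63 (SE 0.76, p = 0.0317, limma adjusted p = 0.818, exact permutation p = 0.3). Leaving out HttQ89 replicate 1 gave -0.49, and leaving out HttQ89 replicate 3 gave -2.73. On recovered reads it was -0.73 in edgeR with depth, -0.60 in edgeR with TMM and -0.62 in DESeq2.

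NTRK2 2 (chr9:84669723-84670123), 1550 bases downstream and wholly within 5′ UTR exon, had 30.9, 22.7 and 32.6 normalised reads in HttQ89, against 30.8, 39.3 and 64.8 in HttQ23. These groups overlapped by the margin of HttQ23 replicate 1 (log2 fold change -0.58, SE 0.79, limma adjusted p = 0.825, exact permutation p = 0.3). The ratio of NTRK2 1 to NTRK2 2 within a library cancels any scaling of that library. It was 0.133, 1.09 and 3.50 in HttQ89 replicates 1 to 3, against 3.76, 1.33 and 1.10 in HttQ23. The HttQ89 libraries held both the lowest value and the second highest value of this ratio. The mean log2 ratio differed by -1.05 (exact two-sided permutation p = 0.4, adjusted p = 1 over the 5 pairs that were compared). Each pair joined promoter peaks of the same gene, which was NTRK2, BDNF, FOXP1 or MEIS2.

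The remaining NTRK2 peaks were near the detection limit. NTRK2 3 (chr9:84527010-84527410) lay 140965 bases upstream, in an intron of another transcript, and had 8.24, 0.99 and 16.3 normalised reads in HttQ89 and 17.0, 5.31 and 7.0 in HttQ23 (log2 fold change -0.50, SE 0.84, limma adjusted p = 0.837, exact permutation p = 0.8). NTRK2 4 (chr9:84955129-84955529) lay inside the gene, with 235 bases of coding exon, and had 0, 15.8 and 3.62 normalised reads in HttQ89 against 1.06, 0 and 19.3 in HttQ23. At these depths a floor of 3 reads is 3.09 normalised reads in HttQ89 replicate 1 and 3.19 in HttQ23 replicate 2. The exact Poisson 95% interval of a count of 0 reaches 3.80 and 3.92 normalised reads there. No order of the groups could be read from either peak.

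REST had a single peak, which was among the strongest members and did not pass the test between groups. REST 1 (chr4:56907919-56908319) covered 1 of the 7 annotated start sites and 295 bases of 5′ UTR exon, and stood at the 77.1st percentile of promoter peaks by level. It had 79.3, 106 and 147.5 normalised reads in HttQ89 replicates 1 to 3, against 148.5, 125 and 118 in HttQ23. HttQ89 replicates 1 and 2 were the lowest libraries, and HttQ89 replicate 3 was just below the highest HttQ23 library. The means were 111 ± 34.4 in HttQ89 and 131 ± 15.8 in HttQ23 (SD, n = 3 each), and the log2 fold change was -0.27 (SE 0.60, limma adjusted p = 0.869, exact permutation p = 0.4), which turned to 0.26 with libraries centred on their medians. In each of the 6 libraries the order of BDNF 1 and REST 1 was the same, with BDNF 1 higher. In HttQ89 replicate 1 that order rested on 78 against 77 reads.

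PPARGC1A encodes PGC-1alpha, a coactivator of mitochondrial genes. Its only peak, PPARGC1A 1 (chr4:24471308-24471708), lay 1183 bases downstream of the start of the transcript named in the table. That transcript belongs in GENCODE v44 to a gene without a symbol (ENSG00000289201), and the peak lies 567 kb from the nearest GENCODE start site of PPARGC1A. RefSeq extends PPARGC1A to position 24472905, so there the peak falls 1197 bases inside the gene. The GENCODE gene body itself held 0 peaks. The peak had 19.6, 0.99 and 45.3 normalised reads in HttQ89 and 48.8, 0 and 34.1 in HttQ23. Replicate 2 was lowest in both groups, with 1 read in HttQ89 and 0 reads in HttQ23, and the exact permutation test gave p = 1.

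The 6 striatal identity genes had 9 peaks, of which 8 were promoter peaks. ADORA2A, CNR1, PENK and PPP1R1B each had 1 peak, FOXP1 had 2 and MEIS2 had 3. Of these, ADORA2A 1 and CNR1 1 had the lowest fold changes, FOXP1 2 stood at -0.13 relative to the median of all tested peaks on the log2 scale, and the other 6 stood above that median.

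ADORA2A encodes the adenosine receptor of indirect pathway medium spiny neurons. ADORA2A 1 (chr22:24423697-24424097) lay 66 bases downstream of a start site, with 261 of its bases in 5′ UTR exon. It had 2.06, 43.5 and 62.5 normalised reads in HttQ89 replicates 1 to 3, against 83.8, 106 and 63.0 in HttQ23. All HttQ89 libraries were below all HttQ23 libraries, although HttQ89 replicate 3 and HttQ23 replicate 3 were separated by less than 1 normalised read. ADORA2A 1 was the only member peak without overlap between groups (1 of 16 tested members), against 4.27% of all tested peaks, 3.76% of tested promoter peaks and 0.537% of all tested peaks with HttQ89 above HttQ23. The means were 36.0 ± 30.9 in HttQ89 and 84.3 ± 21.6 in HttQ23 (SD, n = 3 each), with a log2 fold change of -2.03 (SE 0.77, p = 0.00815, limma adjusted p = 0.818, exact permutation p = 0.1). By p it ranked 84th among all tested peaks.

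Much of the ADORA2A 1 difference came from 1 library. HttQ89 replicate 1 held 2 reads there, with an exact Poisson 95% interval of 0.249 to 7.44 normalised reads, and its ratio of 0.0244 to the HttQ23 mean stood at the 0.578th percentile of all tested peaks in that library. The ratios of HttQ89 replicates 2 and 3 were 0.515 and 0.740, at the 39.4th and 10.6th percentiles of their libraries. Without HttQ89 replicate 1 the log2 fold change of ADORA2A 1 was -0.65, against -2.03 with all libraries. The fold change was -1.49 after median centring, -1.58 after quantile normalisation and -1.60 after TMM scaling. On recovered reads it was -1.22 in edgeR with depth, -0.94 in edgeR with TMM and -0.95 in DESeq2.

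CNR1 encodes the cannabinoid receptor CB1, abundant on the axons of medium spiny neurons. CNR1 1 (chr6:88165979-88166379) covered 1 of 5 annotated start sites and 369 bases of 5′ UTR exon, and stood at the 70.1st percentile of promoter peaks. It had 17.5, 60.3 and 138 normalised reads in HttQ89, against 147, 119 and 129 in HttQ23. HttQ89 replicates 1 and 2 were below every HttQ23 library and HttQ89 replicate 3 was second highest of the 6. The means were 71.8 ± 60.9 in HttQ89 and 132 ± 14.5 in HttQ23 (SD, n = 3 each), with a log2 fold change of -1.29 (SE 0.64, p = 0.0441, limma adjusted p = 0.818, exact permutation p = 0.3). Leaving out HttQ89 replicate 1 gave -0.52, and leaving out HttQ89 replicate 3 gave -1.97. It was -0.76 after median centring and -0.72 after quantile normalisation. On recovered reads it was -0.61 in both edgeR with TMM and DESeq2.

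PENK, the precursor of the enkephalin opioid peptides, was the only member with a positive fold change. PENK 1 (chr8:56446554-56446954) covered 4 of 8 annotated start sites, and the antisense gene PENK-AS1 starts within 2 kb. It had 10.3, 32.6 and 29.0 normalised reads in HttQ89, against 23.3, 31.9 and 4.38 in HttQ23. The lowest library was HttQ23 replicate 3, with 5 reads, and the groups overlapped over most of their range (log2 fold change 0.47, SE 0.85, limma adjusted p = 0.849, exact permutation p = 0.6). Without HttQ23 replicate 3 the sign turned, to -0.33.

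PPP1R1B encodes the dopamine- and cAMP-regulated phosphoprotein that integrates dopamine signals in medium spiny neurons. PPP1R1B 1 (chr17:39627142-39627542) covered 1 start site, 251 bases of 5′ UTR and 81 bases of coding sequence. It had 3.09, 15.8 and 36.2 normalised reads in HttQ89 and 2.12, 29.7 and 37.7 in HttQ23. Replicate 1 was lowest and replicate 3 highest in both groups (log2 fold change -0.18, SE 0.86, limma adjusted p = 0.940, exact permutation p = 0.9). PPP1R1B 1 was the weakest of the member promoter peaks, at the 18.5th percentile of all promoter peaks.

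FOXP1, a forkhead transcription factor of striatal projection neurons, had 2 promoter peaks 518453 bases apart. FOXP1 1 (chr3:71064868-71065268) covered 6 of 67 annotated start sites and had 89.6, 58.3 and 116 normalised reads in HttQ89, against 140, 132 and 49.9 in HttQ23. The lowest library was HttQ23 replicate 3 (log2 fold change -0.20, SE 0.63, limma adjusted p = 0.909, exact permutation p = 0.7). FOXP1 2 (chr3:71583321-71583721) covered 8 start sites and had 60.7, 25.7 and 112 normalised reads in HttQ89, against 103, 65.8 and 98.9 in HttQ23. Both extremes of FOXP1 2 were HttQ89 libraries (log2 fold change -0.63, SE 0.67, limma adjusted p = 0.818, exact permutation p = 0.6).

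MEIS2, a homeodomain factor of the developing striatum, had 2 promoter peaks 2343 bases apart and 1 distal peak. MEIS2 1 (chr15:37101190-37101590) had 66.9, 35.6 and 79.6 normalised reads in HttQ89, against 83.8, 46.7 and 75.3 in HttQ23 (log2 fold change -0.21, SE 0.69, limma adjusted p = 0.915, exact permutation p = 0.6). MEIS2 2 (chr15:37098847-37099247) had 27.8, 32.6 and 93.2 normalised reads in HttQ89, against 46.7, 65.8 and 46.4 in HttQ23 (log2 fold change -0.24, SE 0.74, limma adjusted p = 0.907, exact permutation p = 0.6). Replicate 2 was lowest in both groups at MEIS2 1, and at MEIS2 2 the highest library was HttQ89 replicate 3. MEIS2 3 (chr15:37119598-37119998), between genes and 18299 bases upstream, had 10.3, 8.89 and 4.53 normalised reads in HttQ89 and 11.7, 5.31 and 7.88 in HttQ23 (log2 fold change -0.07, SE 0.85, limma adjusted p = 0.980, exact permutation p = 0.8). MEIS2 3 was the only tested member at which HttQ89 replicate 1 exceeded the HttQ23 mean.

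**Figure D2:**
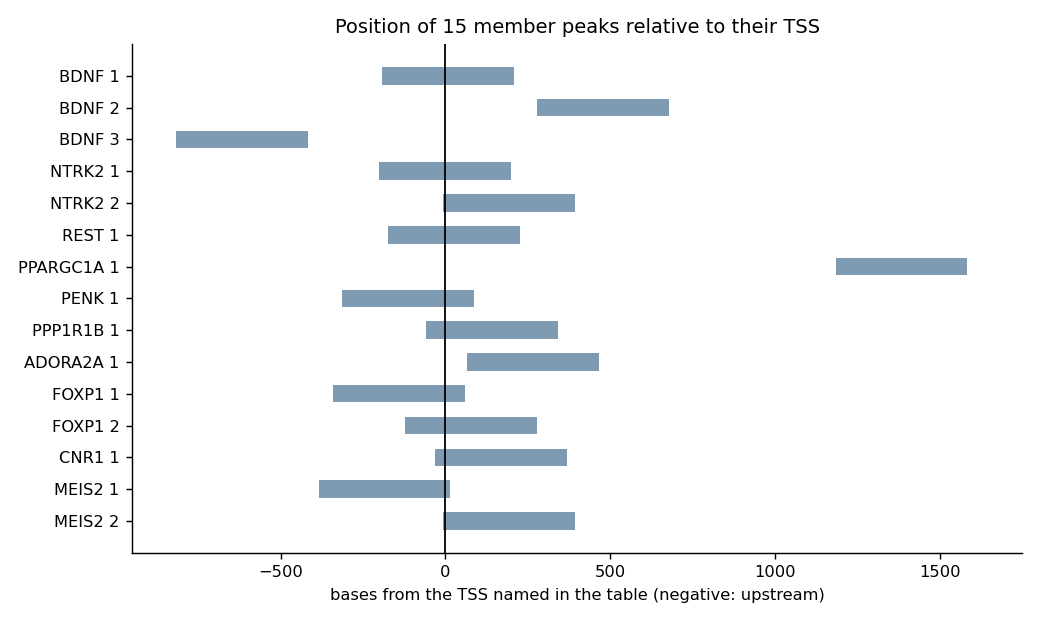
Extent of the 15 member promoter peaks along their gene, in bases from the TSS named in the table (vertical line, negative values upstream). The bars of 11 peaks cross the TSS, BDNF 3 lies upstream, and BDNF 2, ADORA2A 1 and PPARGC1A 1 lie downstream.

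**Figure D3:**
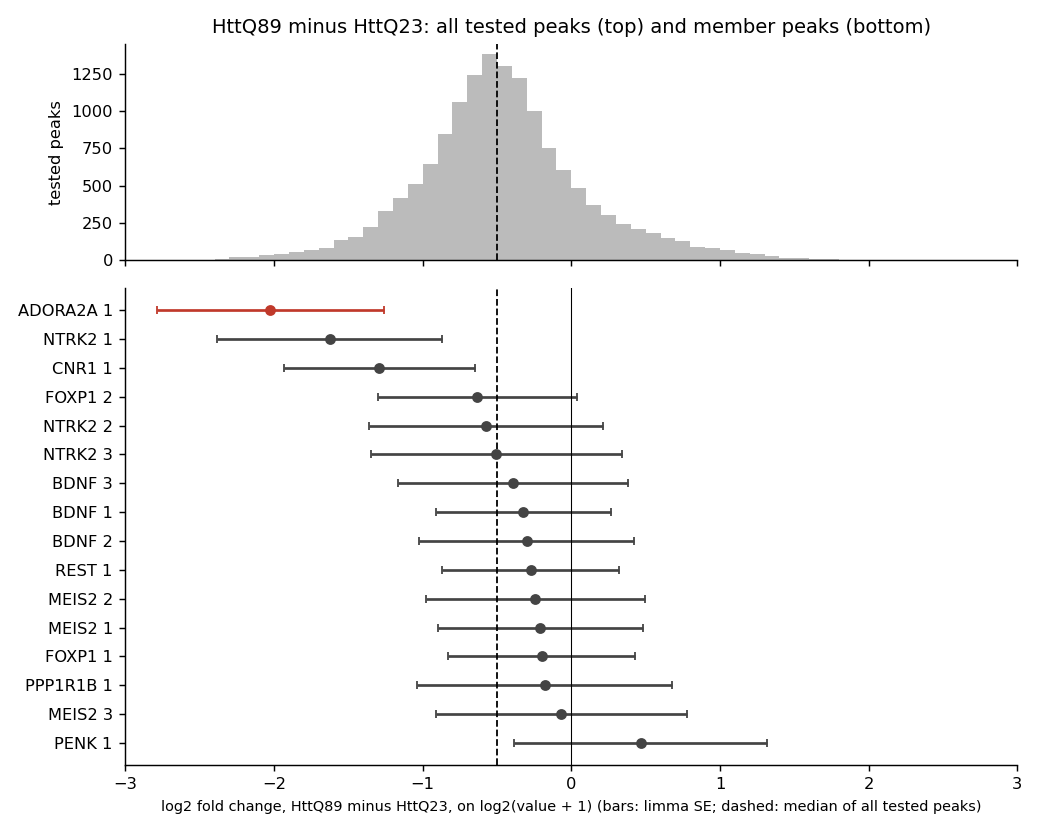
Number of tested peaks by log2 fold change, HttQ89 minus HttQ23 (top), and the fold change of the 16 tested member peaks with bars of 1 limma SE (bottom), where the red point has groups that do not overlap, the dashed line is the median of all tested peaks (-0.50) and the solid line is 0. ADORA2A 1, NTRK2 1 and CNR1 1 lie below the dashed line by more than 1 SE, and the bars of the other members, except PENK 1, reach it.

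The 3 HttQ89 libraries stood on both sides of the HttQ23 means at the members. The median ratio of the 16 tested members to their HttQ23 means was 0.579 in the first HttQ89 replicate, 0.531 in the second and 1.21 in the third. HttQ89 replicate 1 was below the HttQ23 mean at 15 of 16 members and HttQ89 replicate 2 at 13, whereas HttQ89 replicate 3 was above it at 13. HttQ89 replicate 1 was the lowest of the 6 libraries at 7 members and HttQ89 replicate 2 at 5. In HttQ89 replicate 1 the ratio was 0.0518 at NTRK2 1 and 0.133 at CNR1 1, the 2.15th and 8.11th percentiles of all tested peaks in that library, and it was 0.975 at MEIS2 1 and 0.836 at FOXP1 1.

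Leaving out HttQ89 replicate 3 changed the calls. NTRK2 1 (log2 fold change -2.73, SE 0.76, limma adjusted p = 0.0478), ADORA2A 1 (-2.84, SE 0.82, limma adjusted p = 0.0497) and CNR1 1 (-1.97, SE 0.54, limma adjusted p = 0.0476) then passed the test, which makes 3 of 16 members against 514 of all tested peaks (3.5%). In the library left out, these peaks had 114, 62.5 and 138 normalised reads. Without HttQ89 replicate 3, 8 of 16 members had no overlap between groups, against 49.7% of all tested peaks in either direction. Without HttQ89 replicate 1, the log2 fold changes were -0.49 at NTRK2 1, -0.65 at ADORA2A 1 and -0.52 at CNR1 1, 0 members were called, and the lowest unadjusted limma p of a member was 0.25, at PENK 1.

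**Figure D4:**
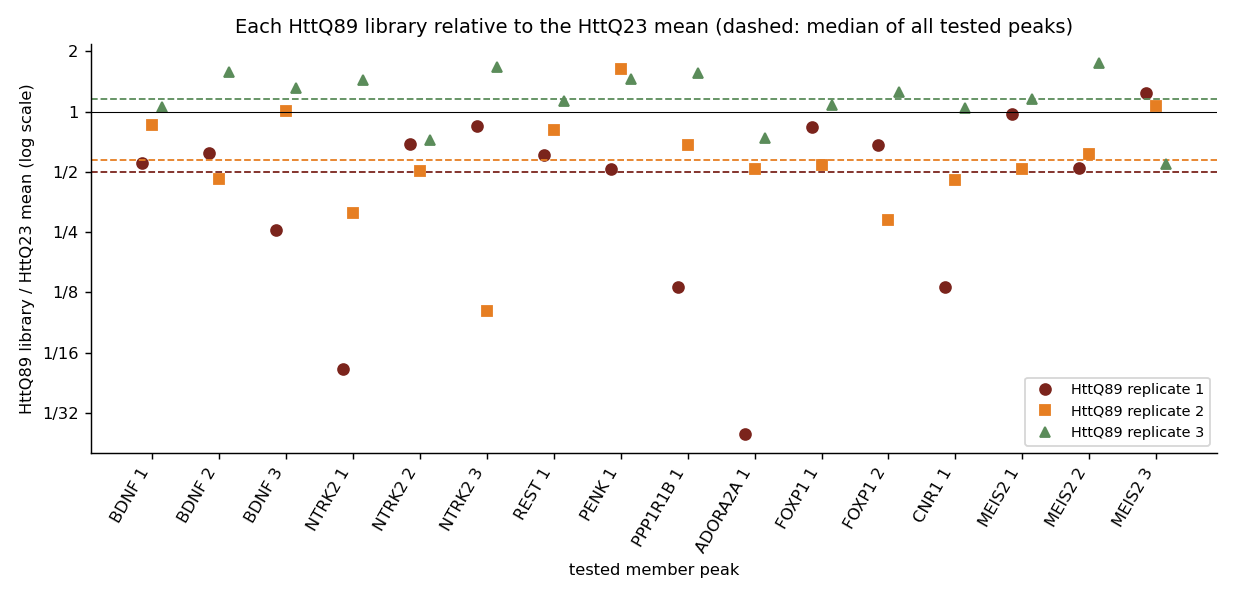
Ratio of each HttQ89 library to the HttQ23 mean (log scale) at the 16 tested member peaks, with dashed lines at the median over all tested peaks in the same library (0.501, 0.573 and 1.16 in replicates 1 to 3) and a solid line at 1. The points of HttQ89 replicate 1 scatter most, down to 0.0244 at ADORA2A 1, and 13 of 16 points of HttQ89 replicate 3 lie above 1.

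The 4 strongest members were the same peaks in both groups, in another order. In HttQ89 the highest means were 120 normalised reads at BDNF 1, 111 at REST 1, 87.9 at FOXP1 1 and 71.8 at CNR1 1. In HttQ23 they were 146 at BDNF 1, 132 at CNR1 1, 131 at REST 1 and 107 at FOXP1 1. In both groups the ranges of all 17 neighbouring pairs in the order overlapped across libraries. BDNF 1 was above REST 1 within every library, though with 78 against 77 reads in HttQ89 replicate 1. By mean over the 6 libraries, 7 of the 15 member promoter peaks were above the promoter median of 61.2 normalised reads, namely BDNF 1, NTRK2 1, REST 1, FOXP1 1, FOXP1 2, CNR1 1 and MEIS2 1. NTRK2 4, MEIS2 3 and NTRK2 3, the members beyond 2 kb, had means of 6.63, 8.10 and 9.13, against 33.2 as the median of all peaks.

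The profile over the 6 libraries, each log2(value + 1) centred on its own mean, was compared with that of every other tested promoter peak by the root mean square difference. For BDNF 1 the closest of 11799 promoters were those of KANSL3 (difference 0.0665 on the log2 scale), KIF26B (0.0693) and STIM1 (0.0741). For REST 1 the closest of 11801 were STIM1 (0.0345), POMT2 (0.0514) and CCND3 (0.0537). All these peaks were measured in the same 6 libraries, and the part of the libraries' overall differences in the likeness was not tested.

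Letters of known binding motifs were sparse under the members. The YY1 core ATGGCG, searched on both strands, was found in 1 of 18 member peaks, against 32.7% of all peaks, and in 1 of 15 member promoter peaks, against 27.0% of all promoter peaks. It stood in 88 of the 100 strongest peaks. The longer AAGATGGCG, which holds the core, was in 0 member peaks and in 3.07% of all peaks. CCATNTT, whose other strand overlaps the longer form, was in 1 member peak and in 19.0% of all peaks. These matches are shown because they were the only ones under members, with capitals marking the match.
PPP1R1B 1, core: tccttggggtccATGGCGcgcggggtgggc
FOXP1 2, CCATNTT: tttttttttttCCATTTTttttctctttt
The PPP1R1B window is chr17:39627377-39627406, read on the minus strand, against the direction of the gene. Its match at chr17:39627389-39627394 shares 2 bases with an annotated start codon at 39627393-39627395, so these letters overlap the beginning of the coding sequence. The FOXP1 window is chr3:71583427-71583455, read on the plus strand against the gene, and its match lies in a run of T bases. Promoter peaks with the core had a median level of 83.5 normalised reads (n = 4155), against 55.7 without it (n = 11229).

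REST binds a long element made of a left and a right part. The left part TTCAGCACC was in 0 member peaks and 0.552% of all peaks, and both parts 2 bases apart were in 0 member peaks and in 13 of 23002 peaks. The right part GGACAG was in 2 member peaks, against 22.6% of all peaks, and both belonged to BDNF, with 2 copies in BDNF 1 and 2 in BDNF 2. The copies in BDNF 2 are shown, in the direction of the gene, because they lie outside UTRs, and capitals mark the GGACAG letters.
BDNF 2, chr11:27719111-27719140: tgcacccccgggGGACAGcgaactgccgga
BDNF 2, chr11:27719339-27719368: cgtgcggcggctGGACAGagccaccaatca
RefSeq promoter windows of 300 bases (GRCh38) were listed for 7 of the 10 genes, with 27 windows. The core ATGGCG stood in 4 of these (CNR1, FOXP1, MEIS2 and PPARGC1A), against 10.7% of 35116 windows, and GGACAG in 5, against 20.5%. A match describes letters in a window and is not a binding site.

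Member peaks were mostly GC-rich. The GC content ran between 36.7% at MEIS2 3 and 79.0% at ADORA2A 1, with a median of 71.3% over all promoter peaks and 54.9% over peaks beyond 2 kb. FOXP1 1 held the most CG dinucleotides (65), followed by BDNF 1 (57), against a promoter median of 42. The peaks with the lowest fold changes differed in composition, with 79.0% GC at ADORA2A 1, 75.6% at CNR1 1 and 64.1% at NTRK2 1.

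**Figure D5:**
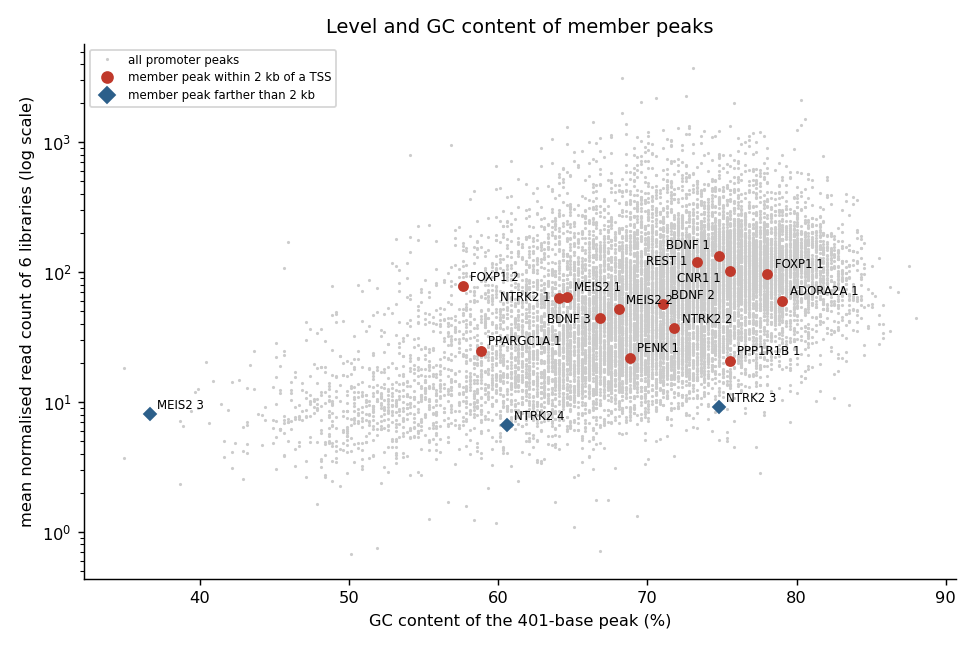
Mean normalised read count over 6 libraries (log scale) against GC content of the 401-base peak, for all promoter peaks (grey), the 15 member promoter peaks (red circles) and the 3 member peaks beyond 2 kb (blue diamonds). BDNF 1 and REST 1 are the highest members at 74.8% and 73.3% GC, and MEIS2 3 has the lowest GC content of the members at 36.7%.

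Other genes of the same pathways were examined through 5 lists, leaving out the members. None of their promoter peaks passed the limma test after adjustment, and each list had a median near that of all tested promoter peaks (-0.51). Of 29 other genes of neurotrophin signalling, 22 had tested promoter peaks, and 24 of these 25 peaks had negative fold changes (median -0.50). PLCG1, the phospholipase recruited by TrkB, had the lowest p among the negative ones (log2 fold change -0.94, limma adjusted p = 0.818), and SOS1, a Ras exchange factor, was the one positive peak (0.03, limma adjusted p = 0.987).

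Of 22 genes of the REST corepressor complex and its turnover, 19 had tested promoter peaks, and 24 of 25 peaks were negative (median -0.47). RCOR3, a paralog of the corepressor CoREST, had 30.9, 19.8 and 48.0 normalised reads in HttQ89, against 62.6, 53.1 and 50.8 in HttQ23. All 3 HttQ89 libraries were below all HttQ23 libraries there (log2 fold change -0.82, limma adjusted p = 0.818), which made 1 peak of the 25, beside 3.76% of all tested promoter peaks. CSNK1A1 was strongest (-0.41, limma adjusted p = 0.825), GSE1 had the lowest p among negative peaks (-1.04, limma adjusted p = 0.818) and PHF21A was the positive one (0.30, limma adjusted p = 0.851).

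Of 26 neuronal genes known to carry REST sites, 19 had tested promoter peaks, with 24 of 28 negative (median -0.62). Groups did not overlap at 4 of the 28, all lower in HttQ89: GRIN1, ELAVL3, CPLX1 and CHRM4, the last with a gap of less than 1 normalised read. Such a pattern was found at 3.76% of all tested promoter peaks. With promoters taken within 1 kb, 2 of 24 peaks were without overlap, whereas the 3.76% is for promoter peaks within 2 kb. SNAP25, a synaptic vesicle fusion protein, had the strongest peak (log2 fold change -0.08, limma adjusted p = 0.957), with 398, 251 and 822 normalised reads in HttQ89 and 466, 222 and 945 in HttQ23. GRIN2A (-1.60, limma adjusted p = 0.818) and SCN3B (0.51, limma adjusted p = 0.825) had the lowest p in each direction.

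Of 25 genes of the PGC-1alpha pathway and mitochondrial biogenesis, 18 had 1 tested promoter peak each, with 15 negative (median -0.45). PRKAA1, a catalytic subunit of AMP kinase, was strongest (-0.39, limma adjusted p = 0.825). ESRRA, the estrogen-related receptor that PGC-1alpha coactivates, had the lowest p among negative peaks (-1.06, limma adjusted p = 0.818), and CAT, encoding catalase, had the lowest among positive ones (0.97, limma adjusted p = 0.818).

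Of 55 other medium spiny neuron genes, 35 had tested promoter peaks, with 40 of 46 negative (median -0.57). At an unadjusted p at or under 0.05, 4 peaks were lower in HttQ89, those of ADCY5, BCL11B, SCN4B and EGR1, beside 4.02% of all tested peaks, and 0 were higher, beside 0.204%. EGR1, an activity-dependent transcription factor, had 2.06, 66.2 and 209 normalised reads in HttQ89 replicates 1 to 3, against 171, 75.4 and 194 in HttQ23 (log2 fold change -1.96, p = 0.00356, limma adjusted p = 0.818, exact permutation p = 0.5). HttQ89 replicate 1 was the lowest and HttQ89 replicate 3 the highest of the 6 libraries at EGR1. ADCY5, the main adenylyl cyclase of the striatum, had 9.27, 61.3 and 108 in HttQ89, against 143, 126 and 101 in HttQ23 (-1.58, limma adjusted p = 0.818). NR4A3 and PDE2A were the 2 of 46 without overlap, both lower in HttQ89, beside 3.76% of all tested promoter peaks. HOMER1 was strongest (-0.80, limma adjusted p = 0.818), and EBF1 had the lowest p among positive peaks (0.82, limma adjusted p = 0.818).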

How the data were processed

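YY1 ChIP-seq of SK-N-MC cells was analysed in 3 HttQ89 and 3 HttQ23 libraries. The 3 inputs are not analysed here. Upstream steps are taken from the submitters' processing notes and from the methods of the study. Reads were paired, of 150 nt each. The authors used FastQC 0.11.8 for quality control, Cutadapt 3.7 for trimming and Bowtie2 2.4.1 for alignment to GRCh38.p14. They kept reads with 1 alignment, dropped the blacklist with bedtools 2.29.2, and found and annotated peaks with MACS3 3.0.1 (input as background) and ChIPseeker 1.38.0. Not given in the sources used here is whether libraries were pooled for peak calling. A peak's deposited signal is the number of reads per peak that the authors scaled to sequencing depth in DiffBind. That scaling keeps differences in yield or occupancy across all peaks.

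The values of each library were whole multiples of 1 step, and 100% gave whole reads within a tolerance of 0.1. Recovered reads numbered 927910, 1012558 and 2344649 in HttQ89 and 1943927, 1415890 and 2089917 in HttQ23. No pair of libraries was identical. All 23002 transcripts were found in GENCODE v44, with exact distances to the TSS.

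Peaks above 0 in all 6 libraries (63.9%) were tested with limma 3.58.1 on log2(value + 1), with a trend, two-sided, and Benjamini-Hochberg adjustment over all of them at 0.05 (R 4.3.3). limma estimated no extra variance of single peaks and gave each peak the variance of the trend. SE values therefore follow peak strength, not the spread of a peak's own libraries. Exact two-sided permutation tests used 3 against 3 libraries, and their p-values rest on the library values of the peak itself. The limma p-values rest on the trend of the variance between libraries over all tested peaks. Poisson intervals (95%) and floors of 3 reads cover counting error only. edgeR 4.0.16 and DESeq2 1.42.0 on recovered reads, other pseudocounts, filters and scalings, a replicate block, a 1 kb promoter limit and leaving out each library were alternatives. The fits were checked on simulated counts that varied less between libraries than the deposited ones. That check does not measure power or false calls in these data. All member peaks are accounted for. Of each list, the strongest promoter peak and the lowest p in each direction are named, and peaks with no overlap or an unadjusted p at or under 0.05 were named after their values were seen. The strongest peak of the neurotrophin list is not reported here. The 3 promoters most like BDNF 1 and REST 1 are named. The members and lists were chosen with earlier results of these data known.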

Additional observations from a re-analysis of the deposited data

How the results depend on the processing

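No member peak was called under another pseudocount (0.5 or 5), filter, scaling or tool, and without 1 library the number called lay between 0 and 3. The number of member peaks lower at an unadjusted p at or under 0.05 was 3, and it was 0 without a filter, 1 with a mean of at least 20, 0 after median centring, 0 after quantile normalisation, 0 after TMM scaling, 0 in edgeR with depth, 0 in edgeR with TMM and 0 in DESeq2. It lay between 0 and 3 without 1 library. Over all tested peaks the number was 591 of 14698. It was 345 of 23002 without a filter and 444 of 14576 with a mean of at least 20. After median centring, quantile normalisation and TMM scaling it was 94, 133 and 110 of 14698. In edgeR with depth, edgeR with TMM and DESeq2 it was 117, 75 and 85. Without 1 library it ran from 140 (without HttQ23 replicate 1) to 4516 (without HttQ89 replicate 3) of 14698. The member median log2 fold change (-0.31) was 0.23 after median centring, 0.17 after quantile normalisation, 0.18 after TMM scaling, 0.19 in edgeR with TMM and 0.20 in DESeq2, and lay between -0.79 (without HttQ89 replicate 3) and -0.20 (without HttQ23 replicate 1) without 1 library. The number of members without overlap lay between 1 and 8 without 1 library, with 8 without HttQ89 replicate 3 (49.7% of all tested peaks), and 2 of 16 (12.5%) both without HttQ23 replicate 1 (7.16% of all) and without HttQ23 replicate 3 (18.6% of all).

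Signs turned under scalings that set the libraries to a common level, and the cause was not tested. In the order median centring, quantile normalisation, TMM scaling, edgeR with TMM and DESeq2, the log2 fold change was 0.21, 0.20, 0.17, 0.19 and 0.20 at BDNF 1, 0.24, 0.21, 0.18, 0.20 and 0.21 at BDNF 2, and 0.15, 0.15, 0.085, 0.17 and 0.18 at BDNF 3. It was 0.26, 0.24, 0.22, 0.23 and 0.24 at REST 1, 0.34, 0.30, 0.29, 0.21 and 0.22 at FOXP1 1, and 0.33, 0.26, 0.28, 0.34 and 0.35 at MEIS2 1. It was 0.29, 0.27, 0.24, 0.23 and 0.24 at MEIS2 2, and 0.47, 0.30, 0.41, 0.61 and 0.65 at MEIS2 3. PPP1R1B 1 had 0.36, 0.085 and 0.21 under the first 3 of these settings, and NTRK2 3 had 0.033, 0.18 and 0.19 under median centring, edgeR with TMM and DESeq2.

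Without 1 library at a time, the log2 fold change crossed 0 at BDNF 2 (-0.81 to 0.059), BDNF 3 (-0.83 to 0.30), NTRK2 3 (-1.18 to 0.38), PENK 1 (-0.33 to 0.98), PPP1R1B 1 (-1.33 to 0.69), FOXP1 1 (-0.68 to 0.064), MEIS2 1 (-0.46 to 0.13), MEIS2 2 (-0.78 to 0.079) and MEIS2 3 (-0.32 to 0.24). It stayed negative at ADORA2A 1 (-2.84 to -0.65), NTRK2 1 (-2.73 to -0.49), CNR1 1 (-1.97 to -0.52), BDNF 1 (-0.53 to -0.06), REST 1 (-0.50 to -0.06), FOXP1 2 (-1.13 to -0.08) and NTRK2 2 (-0.81 to -0.28).

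The replicate numbers shared by the groups were checked once. Deviations from the group means correlated over 14698 peaks by 0.041, 0.386 and 0.146 in replicates 1, 2 and 3. Between libraries of different number the correlations ran from -0.29 to 0.129. The highest of these was between HttQ89 replicate 1 and HttQ23 replicate 3. The labels do not say whether libraries of the same number were prepared together, and a shared preparation was not tested. With the replicate block, 0 members and 1 of all tested peaks were called, and the member median was -0.31. At an unadjusted p at or under 0.05, 2 members were then lower, beside 633 of 14698 tested peaks. NTRK2 4 and PPARGC1A 1 had 0 reads in at least 1 library, and in HttQ89 replicate 1 22.5% of all peaks were at 0.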
